A study of Mus musculus with 28 samples.

Results

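Motor neuron identity genes are a set of 10 genes among the 45513 listed in each count table. They were picked by name for their known roles, and the rule uses no measured value, although earlier results of these data were known when the set was drawn up. The set holds 6 transcription factors of motor neuron development (Neurog2, Lhx3, Lhx4, Isl1, Isl2 and Mnx1) and 4 genes that handle acetylcholine (Slc18a3, Chat, Slc5a7 and Ache). The question was how much of this identity remains in MN1 cells relative to cortical neurons, in total mRNA and on ribosomes, and whether it changes with human TDP-43.

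MN1 is a clonal line, a hybrid of mouse spinal motor neurons with mouse neuroblastoma cells, used here at passage 10 to 12. The cells were transiently transfected with plasmids encoding GFP as the control, hTDP-43 (the unmutated human protein) or hTDP-43 A315T (a human variant found in amyotrophic lateral sclerosis), with 2 cultures for each arm. Cortical neurons of C57BL/6J mice were taken at embryonic day 16 and kept 14 days in vitro with Ara-C, which removes dividing cells. They came from wild type animals (WT, 2 cultures) or from animals with a Prp-hTARDBP transgene, a human TDP-43 gene under a prion protein promoter, that encodes hTDP-43 (3 cultures) or hTDP-43 A315T (3 cultures). Each culture gave a total mRNA library (poly(A)-selected) and a footprint library (mRNA pieces shielded by ribosomes), 28 libraries in all. MN1 cells received 100 µg/mL cycloheximide, which arrests ribosomes, for 3 min before lysis and neurons did not, so this treatment and the cell type cannot be told apart. Nothing in the labels says that the cultures came from separate animals, and p-values measure the spread between these cultures. Where footprints are set against total mRNA, the main fits treated the 2 libraries of a culture as independent. There p-values measure the spread between libraries.

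Spinal motor neurons arise from progenitors that switch on the proneural factor Neurog2 (neurogenin 2) shortly before they stop dividing. Isl1 and Lhx3, both LIM-homeodomain proteins, then assemble into a complex that switches on the motor neuron and cholinergic programmes, and Mnx1 (HB9) holds that fate. Mature motor neurons signal with acetylcholine: Slc5a7 takes up choline, Chat makes the transmitter, Slc18a3 loads it into vesicles and Ache breaks it down after release. In the cortex, Neurog2 is instead a factor of excitatory neuron progenitors, and Ache is made by many neurons that release no acetylcholine.

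The 10 genes lie on GRCm38, the build of the count tables, as follows. Isl1 is at chr13:116298281-116309689 (minus strand), Isl2 at chr9:55538672-55546180 (plus), Lhx3 at chr2:26200212-26208289 (minus), Lhx4 at chr1:155698031-155751684 (minus) and Mnx1 at chr5:29473034-29478470 (minus). Slc18a3 is a single-exon gene at chr14:32462438-32464850 (minus) inside the span of Chat, chr14:32408203-32465909 (minus), and the exons of these genes share 0 bases. Slc5a7 is at chr17:54273594-54299034 (minus), Ache at chr5:137287519-137294466 (plus) and Neurog2 at chr3:127633135-127635631 (plus). Reads were counted over exons without regard to strand. Lhx3 shares 188 of its 3045 exon bases with the antisense gene Gm27196, and Ache shares 98 of 4623 with Gm42456, so reads there cannot be assigned to either gene.

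To show what lies just ahead of the genes that the results turn on, a window of 30 bases was taken from the promoters of Isl1 and Slc18a3, the most abundant members in MN1 total mRNA, and of Neurog2, which differed most between MN1 cultures. The capitals mark TAAT, the core that homeodomain proteins such as the LIM factors bind, or its reverse complement ATTA. Both strands of the 250 bases before each RefSeq start (GRCm38.p6) were searched, overlapping matches were counted once per promoter, and the match nearest to the start is shown.
Isl1: ggctgaaatatgaTAATcagaacagctgcg
Slc18a3: ccgacgacgtcctATTAgcatgagcgacgc
Neurog2: aaatgaatgatgaTAATacgatgaaaagaa
These windows are chr13:116309784-116309813 (minus strand), chr14:32464938-32464967 (minus) and chr3:127632969-127632998 (plus), and the motif ends 109, 101 and 151 bases before the start. The core was present in 5 of the 11 promoters listed for the 10 genes (45.5%) and in 18041 of 32851 promoters overall (54.9%). The share was thus no larger than among promoters at large, and a match is only a run of letters.

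Libraries held between 166064 and 6969578 reads assigned to genes, and the shallowest was a neuron footprint library. A gene with 3 reads had a counts-per-million (CPM) value, with TMM-scaled library sizes, of 0.905 to 7.92 in MN1 libraries and of 0.480 to 20.04 in neuron libraries, so low members could not be measured in every library. Levels are given as CPM on this scale, and levels of different genes are compared only as RPKM, which also divides by exon length. The mitochondrial leucyl-tRNA synthetase gene Lars2 took 5.84 to 7.21% of reads in MN1 total mRNA and 3.09 to 18.8% in neuron total mRNA. Of the 10 cortical excitatory markers, 10 of 10 were lower in MN1 total mRNA, led by Mef2c, Neurod6, Emx1 and Neurod2, where 42.6% of all 12801 genes tested were called lower. Their summed level was 22.4 to 35.9 CPM in MN1 total mRNA against 2484 to 3471 CPM in neurons. Of 12 glial markers 2 were at 0 in every MN1 total mRNA library, and the list summed to 6.06 to 10.9 CPM there and to 99.4 to 197.2 CPM in neurons.

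Total mRNA was first compared between MN1 cells and cortical neurons, as the average over the arms of each. Isl1, Isl2, Lhx4 and Slc18a3 were higher in MN1 cells, by 8.59 to 13.9-fold, and Ache was 7.02-fold lower. Members low in neurons passed the low-count filter through their MN1 libraries. No neuron library had more than 1 read of Isl2 or 5 reads of Lhx4, so for these genes a call as higher was close to fixed in advance. Neurog2 did not pass the test, and Mnx1, Lhx3, Chat and Slc5a7 had too few reads to be tested. Thus 6 of 10 members were tested and 5 were called at an adjusted p below 0.05, where 81.0% of all 12801 genes tested were called (38.4% higher and 42.6% lower). With a background of that size, a call by itself says little about a member, and the levels that follow carry the description. How many of all genes also split between the cell types without overlap was not counted, so a lack of overlap by itself says little as well. In bulk samples, fewer cells of a type and less RNA per cell cannot be told apart.

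Isl1 was the best expressed transcription factor of the set in MN1 total mRNA. It stood at 30.7 and 38.8 CPM in the GFP cultures, 37.7 and 32.7 CPM in the hTDP-43 cultures and 26.6 and 31.5 CPM in the hTDP-43 A315T cultures. The 8 neuron libraries ranged from 1.41 to 6.41 CPM with a median of 3.68 CPM. Every MN1 library was above every neuron library, and the difference was 9.02-fold (log2 fold change 3.17 ± 0.25 SE, adjusted p = 2.13e-08). Isl1 also marks sympathetic and other peripheral neurons, and it was counted in the list of neuroblastoma and sympathoadrenal genes as well.

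Isl2, the paralogue that acts later in motor neuron differentiation, was much lower. In MN1 total mRNA it had 2.19 and 4.72 CPM with GFP, 3.30 and 1.82 CPM with hTDP-43 and 3.92 and 6.84 CPM with hTDP-43 A315T, from 3 to 15 reads per library. No neuron total mRNA library had more than 1 read. The fold change was 13.9 (log2 3.80 ± 0.60 SE, adjusted p = 3.26e-05), although the CPM ranges overlapped, because 1 read in the shallowest neuron library amounts to 2.24 CPM. With the GFP and WT cultures alone Isl2 had too few reads to be tested.

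Lhx4, a LIM factor that works beside Lhx3 in early motor neurons, ranged from 2.74 to 5.44 CPM in MN1 total mRNA (6 to 15 reads per library) and from 0 to 2.29 CPM in neurons. The ranges did not overlap and the fold change was 8.59 (log2 3.10 ± 0.62 SE, adjusted p = 0.000313). With the GFP and WT cultures alone the adjusted p was 0.140 (log2 2.15 ± 1.11 SE), and with the culture number as a replicate block the log2 difference was 4.07. Of the 10 neuron reads 5 came from WT culture 3, and without it the log2 difference was 4.54 ± 0.67 SE.

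Slc18a3, the vesicular acetylcholine transporter, was the only cholinergic member called higher in MN1 cells in this comparison. Its total mRNA was 15.3 and 23.2 CPM in the GFP cultures, 26.8 and 26.0 CPM with hTDP-43 and 29.3 and 31.9 CPM with hTDP-43 A315T. In neurons it lay between 0 and 4.11 CPM, with a median of 2.28 CPM. The groups did not overlap, and the difference was 11.02-fold (log2 3.46 ± 0.27 SE, adjusted p = 1.71e-08). Without the neuron culture hTDP-43 1 the fitted log2 difference was 5.10 ± 0.35 SE, which is no measured fold, since that arm was then left with 2 libraries at 0 reads and the fit averages the arms on the log scale.

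Chat, the enzyme that makes acetylcholine and whose transcripts come from the same locus, had too few reads to tell whether it followed Slc18a3. It had 0 to 7 reads per MN1 total mRNA library and 0 to 4 per neuron library, which sums to 18 reads of 11741800 in MN1 cells and 13 of 26577132 in neurons. As CPM of the summed reads, without TMM scaling, this is 1.53 (95% exact Poisson interval 0.909 to 2.42) and 0.489 (0.260 to 0.836), intervals that cover counting error only. Slc5a7, the high-affinity choline transporter, reached 0 to 8 reads in MN1 total mRNA and 1 to 9 in neurons, or 1.53 (0.909 to 2.42) and 1.13 (0.762 to 1.61) CPM. Without the low-count filter, when all genes with a read were tested and 40.8% of them were called, neither gene passed (Chat log2 0.79 ± 0.77 SE, adjusted p = 0.549, and Slc5a7 adjusted p = 1.00).

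Ache, acetylcholinesterase, ran the other way. MN1 total mRNA held 7.66 and 17.4 CPM with GFP, 9.42 and 21.2 CPM with hTDP-43 and 12.98 and 19.6 CPM with hTDP-43 A315T, while neurons ranged from 78.3 to 128.5 CPM with a median of 110.7 CPM. Every MN1 library was below every neuron library (log2 -2.81 ± 0.24 SE, adjusted p = 3.85e-08). Ache was the only member that was called lower in MN1 cells in this comparison.

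Mnx1 (HB9) was close to the limit of counting in both cell types. It had 2 or 3 reads in each of the 6 MN1 total mRNA libraries, 14 reads in all (1.19 CPM, 95% exact Poisson interval 0.652 to 2.00), and 2 reads over the 8 neuron libraries (0.0753 CPM, 0.00911 to 0.272). Lhx3 had 1 to 14 reads in MN1 total mRNA and 0 to 3 in neurons, which sums to 34 and 9 reads. Tested without the low-count filter, both were higher in MN1 cells (Mnx1 log2 3.48 ± 1.08 SE, adjusted p = 0.00361, and Lhx3 log2 2.10 ± 0.72 SE, adjusted p = 0.00924). In that fit 8 members were called, and 40.8% of all 29493 genes tested. Leaving out the filter also raised the calls among the arms, from 0 to 1 genes to 6 to 209, so these calls from few reads are weak.

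**Figure D1:**
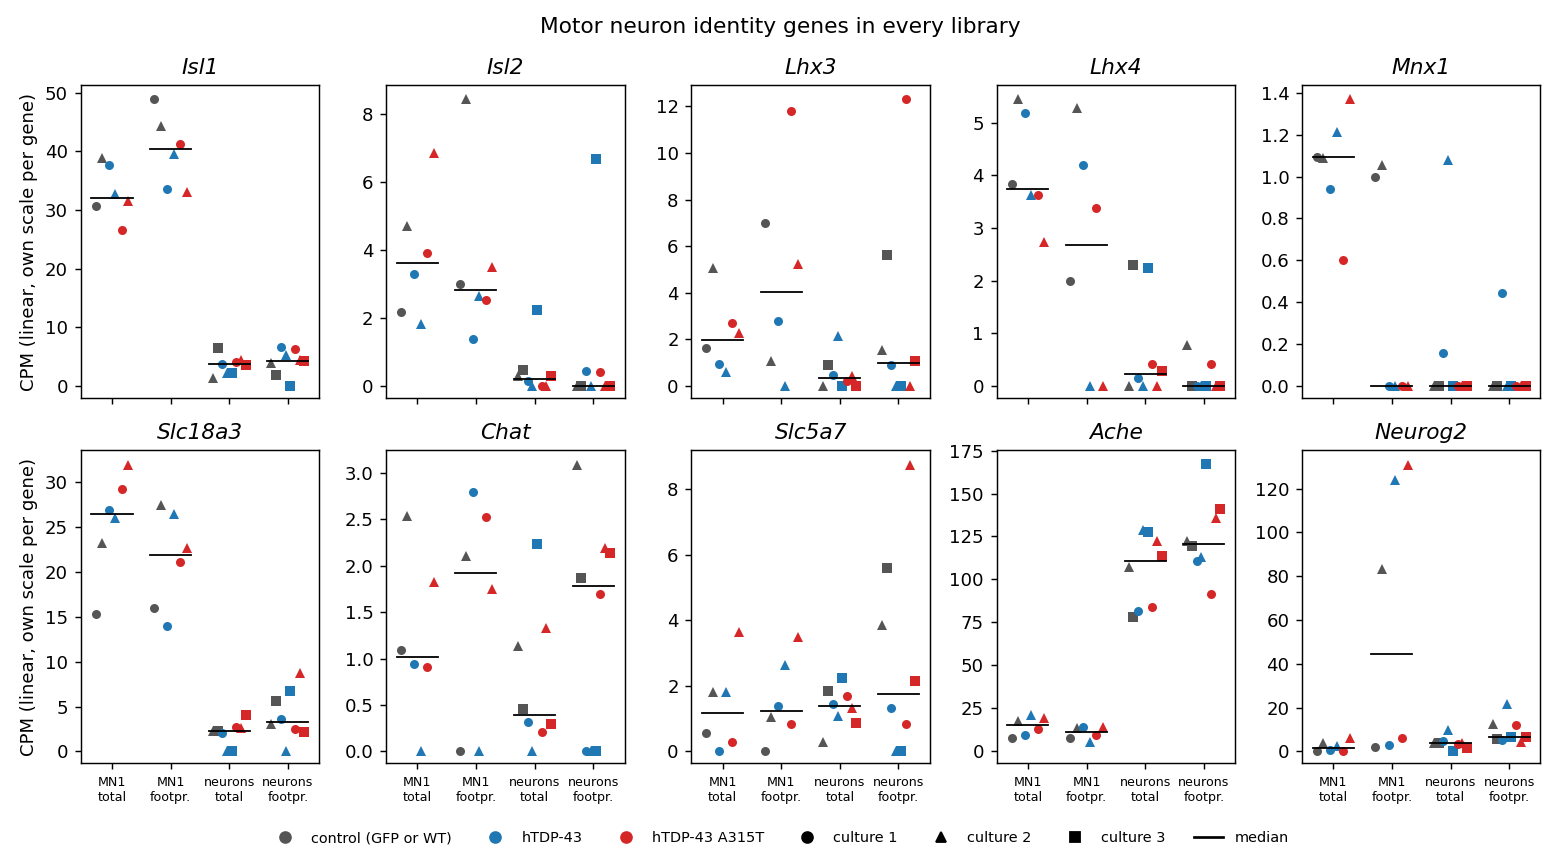
Level of each of the 10 genes in every library (CPM on a linear axis with its own scale for each gene); colour gives the arm, symbol the culture number, and the line is the median of a cell type and library type. Isl1 and Slc18a3 lie higher in all MN1 libraries than in all neuron libraries, Ache lies lower, and Neurog2 is high in 3 of 6 MN1 footprint libraries.

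In footprints, reads were fewer and only 4 members could be tested between MN1 cells and neurons: Isl1, Slc18a3, Ache and Neurog2. All of these 4 were called, where 82.6% of 10698 genes tested were called (39.9% higher and 42.7% lower). Isl1, Slc18a3 and Neurog2 were higher in MN1 footprints and Ache was lower. Isl1 and Slc18a3 passed the low-count filter here through their MN1 libraries too, with neuron maxima of 6.68 and 8.75 CPM. Neurog2 passed it mainly through the MN1 footprint libraries of the cultures numbered 2, with 47 to 79 reads each.

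Isl1 footprints were at 48.9 and 44.3 CPM with GFP, 33.5 and 39.6 CPM with hTDP-43 and 41.3 and 33.2 CPM with hTDP-43 A315T, against 0 to 6.68 CPM in neurons (median 4.33 CPM). The cell types did not overlap (log2 3.03 ± 0.24 SE, adjusted p = 1.39e-10). Slc18a3 footprints were at 15.97 and 27.4 CPM, 14.0 and 26.4 CPM, and 21.1 and 22.7 CPM in the same order of arms, and at 0 to 8.75 CPM in neurons (median 3.33 CPM). Again every MN1 library was higher, by 5.64-fold (log2 2.50 ± 0.35 SE, adjusted p = 1.22e-06).

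Ache footprints ranged from 5.28 to 14.0 CPM in MN1 cells (2 to 13 reads per library) and from 91.7 to 167.0 CPM in neurons, an 11.01-fold difference with no overlap (log2 -3.46 ± 0.20 SE, adjusted p = 6.30e-13). Of the members that were not tested, Isl2 had 1 to 8 footprint reads per MN1 library and at most 1 per neuron library, Lhx4 had 0 to 5 and at most 1, and Mnx1 at most 1 in each. Chat had 0 to 3 footprint reads per MN1 library and 0 to 4 per neuron library, and Slc5a7 0 to 2 and 0 to 5. Without the low-count filter, where 44.6% of genes were called, Isl2 (log2 3.02 ± 0.98 SE, adjusted p = 0.00543) and Lhx4 (log2 3.04 ± 0.97 SE, adjusted p = 0.00454) were higher in MN1 footprints, and Lhx3 (log2 0.58 ± 0.60 SE, adjusted p = 0.578) did not pass. Lhx3 footprints in neurons came largely from a single library, hTDP-43 A315T culture 1, which had 29 of the 37 reads.

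**Figure D2:**
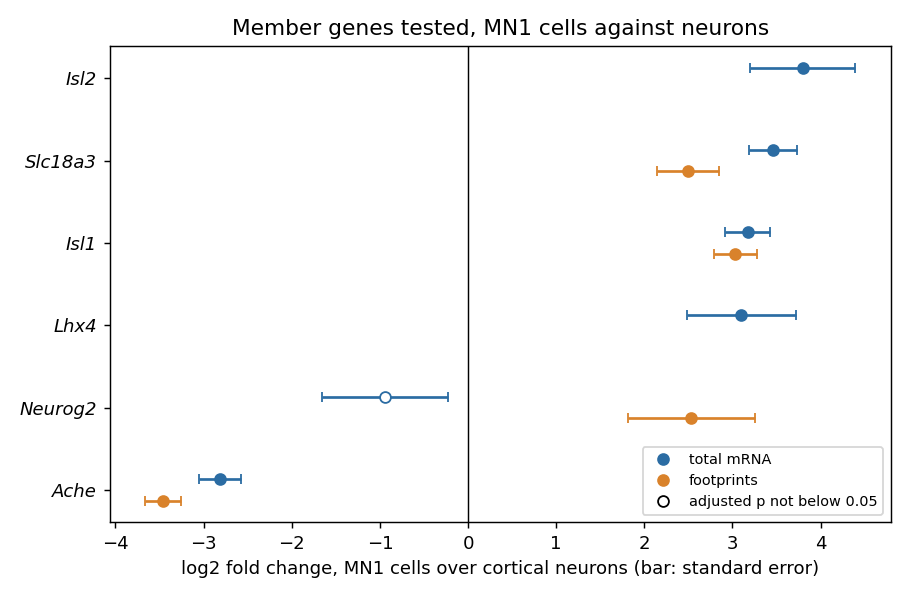
Log2 fold change of MN1 cells over cortical neurons for the members tested, in total mRNA (14 libraries) and in footprints (14 libraries); bars are standard errors and open symbols did not pass an adjusted p of 0.05. Isl1 and Slc18a3 are above 0 in both library types and Ache is below 0 in both, while Neurog2 is at -0.94 in total mRNA and 2.53 in footprints.

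Neurog2 was the member that varied most between cultures of the same arm. MN1 footprints had 2.00 CPM in GFP culture 1 and 83.3 CPM in GFP culture 2, 2.79 and 124.1 CPM in the hTDP-43 cultures 1 and 2, and 5.91 and 130.9 CPM in the hTDP-43 A315T cultures 1 and 2. In reads these are 2 against 79, 2 against 47 and 7 against 75. The split follows the culture number, which in the sample titles stands for a date, and not the arm. The title of the GFP culture 1 footprints gives the day and month of its partners but another year, so whether that library shares their date is not certain.

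MN1 total mRNA showed the same order at a far lower level, with 0, 1 and 0 reads in the GFP, hTDP-43 and hTDP-43 A315T cultures numbered 1 and 11, 4 and 13 reads in those numbered 2. In neurons Neurog2 ranged from 0 to 9.72 CPM in total mRNA (median 3.81 CPM) and from 4.38 to 21.5 CPM in footprints (median 6.55 CPM). Relative to neurons, Neurog2 footprints in MN1 cells were 5.80-fold higher over all cultures (log2 2.53 ± 0.72 SE, adjusted p = 0.00286). With the MN1 cultures numbered 2 alone the difference was log2 3.53 ± 0.26 SE, and with those numbered 1 alone it was log2 -1.47 ± 0.61 SE (adjusted p = 0.0309), a change of direction. With the culture number as a replicate block it was log2 1.34 ± 0.36 SE. Without the culture 2 footprint library of GFP, hTDP-43 or hTDP-43 A315T in turn, the log2 difference, an average of arm means on the log scale, was 1.06, 1.10 or 1.33 and the call was lost (adjusted p = 0.421, 0.395 and 0.110). Gene counts do not show where on Neurog2 these reads lie.

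In total mRNA Neurog2 did not pass (log2 -0.94 ± 0.72 SE, adjusted p = 0.236), and with the cultures numbered 2 alone it was at log2 -0.08 ± 0.59 SE. It was called lower in MN1 cells with the replicate block (log2 -2.15 ± 0.62 SE, adjusted p = 0.00582), with the cultures numbered 1 alone (log2 -5.25 ± 1.20 SE), without the low-count filter (log2 -1.02 ± 0.43 SE, adjusted p = 0.0465) and without MN1 hTDP-43 A315T culture 2 (log2 -2.90 ± 0.97 SE, adjusted p = 0.0146). Culture numbers 2 and 1 were also compared directly within MN1 cells, with the arm as a covariate, a comparison added after these values had been seen. Neurog2 footprints differed by log2 4.92 ± 0.27 SE (adjusted p = 1.99e-09) and held rank 7 of 8178 genes by adjusted p, where 4.67% of genes were called (2.60% higher in the cultures numbered 2). Isl1 (log2 -0.06 ± 0.21 SE, adjusted p = 0.917), Slc18a3 (log2 0.62 ± 0.31 SE, adjusted p = 0.288) and Ache (log2 0.33 ± 0.43 SE, adjusted p = 0.743) did not pass in footprints. In total mRNA Ache was higher in the cultures numbered 2 (log2 0.92 ± 0.22 SE, adjusted p = 0.0109, where 15.2% of 10053 genes were called and 6.51% were higher), by edgeR but not by DESeq2 (adjusted p = 0.214). What differed between these dates is not given in the labels, and a cause was not tested.

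**Figure D3:**
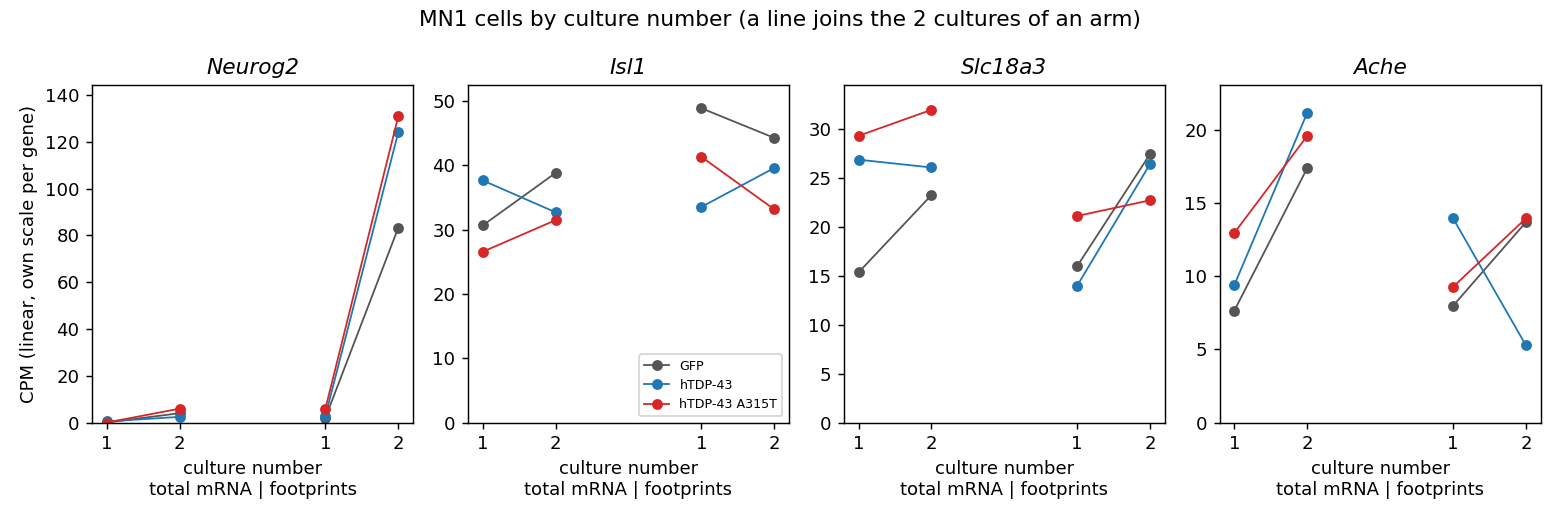
Neurog2, Isl1, Slc18a3 and Ache in MN1 cells by culture number, in total mRNA (left pair of each panel) and footprints (right pair), as CPM on a linear axis with its own scale for each gene; a line joins the 2 cultures of an arm. Neurog2 footprints lie between 2.00 and 5.91 CPM in the cultures numbered 1 and between 83.3 and 130.9 CPM in those numbered 2, while Isl1 lies between 26.6 and 48.9 CPM in all 12 MN1 libraries.

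Footprints were then set against total mRNA within a cell type, which asks whether a gene takes a larger share of ribosome-protected reads than of mRNA reads. These library types also differ in poly(A) selection. In MN1 cells 4 members were tested and Isl1 and Neurog2 were called higher in footprints, where 59.5% of 10212 genes were called in either direction. Isl1 was 1.30-fold higher (log2 0.38 ± 0.13 SE, adjusted p = 0.0212), a call that was lost without the low-count filter (adjusted p = 0.268), without GFP culture 1 (adjusted p = 0.101) or hTDP-43 A315T culture 1 (adjusted p = 0.125) and with the cultures numbered 2 alone (adjusted p = 0.276). Neurog2 was higher by log2 4.65 ± 0.95 SE (adjusted p = 0.000430), and by log2 4.76 with the cultures numbered 2 alone. It passed the low-count filter through the footprint libraries numbered 2, since MN1 total mRNA held 0 to 13 reads of it per library. For Neurog2 a call as higher in footprints was therefore close to fixed in advance. Slc18a3 (log2 -0.19 ± 0.20 SE, adjusted p = 0.417) and Ache (log2 -0.35 ± 0.31 SE, adjusted p = 0.346) did not pass.

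In neurons 4 members were tested as well, and Neurog2 was called higher in footprints (log2 1.30 ± 0.39 SE, adjusted p = 0.00796), where 56.3% of 11654 genes were called in either direction. Here too Neurog2 passed the low-count filter mainly through footprint libraries. The call was lost without hTDP-43 A315T culture 1 (log2 1.07 ± 0.45 SE, adjusted p = 0.0539). Ache had log2 0.33 ± 0.14 SE (adjusted p = 0.0577), and with the culture as a replicate block it was called higher in footprints (log2 0.35 ± 0.10 SE, adjusted p = 0.00682). Isl1 (log2 0.49 ± 0.36 SE, adjusted p = 0.260) and Slc18a3 (log2 0.71 ± 0.45 SE, adjusted p = 0.183) did not pass.

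The difference between the cell types in this footprint shift was tested in a fit of all 28 libraries. None of the 6 members tested was called by edgeR, where 8.07% of 12358 genes were called. Slc18a3, Ache and Neurog2 had an unadjusted p below 0.05 in edgeR, where 23.3% of all genes tested did. Neurog2 had the largest estimate (log2 3.42 ± 1.19 SE, adjusted p = 0.0734), and with the culture as a replicate block it was called (log2 3.43 ± 0.47 SE, adjusted p = 7.48e-05). Slc18a3 (log2 -1.06 ± 0.47 SE, adjusted p = 0.167) and Ache (log2 -0.78 ± 0.35 SE, adjusted p = 0.170) had estimates below 0 and Isl1 was at log2 -0.22 ± 0.37 SE (adjusted p = 0.819). The median over all genes tested was log2 -0.20, and 734 of the 997 genes called were lower. By DESeq2 and with its size factors most genes called were instead higher, so the sign of small estimates depends on the scaling. DESeq2 called none of the 4 members to which it gave an adjusted p, and Neurog2 stood at log2 3.67 ± 1.399 SE (adjusted p = 0.0896).

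Per exon length, the order of the members in MN1 total mRNA began with Slc18a3 (median 10.96 RPKM, range 6.35 to 13.2) and Isl1 (8.11 RPKM, 6.71 to 9.81), whose ranges overlapped. Ache followed at 3.29 RPKM (1.66 to 4.59), below Isl1 with no overlap and overlapping Isl2 at 1.65 RPKM (0.829 to 3.12). The other 6 members had medians of 0.228 to 0.650 RPKM, each overlapping its neighbour. In neuron total mRNA Ache led at 23.9 RPKM (16.9 to 27.8), above all others with no overlap, and Neurog2 came next at 1.71 RPKM (0 to 4.36) with Slc18a3 (0.944 RPKM) and Isl1 (0.929 RPKM) after it. In MN1 footprints Neurog2 came first by its median of 20.03 RPKM (0.896 to 58.8), overlapping Isl1 at 10.2 RPKM (8.38 to 12.4) and Slc18a3 at 9.07 RPKM (5.79 to 11.4), and Slc18a3 lay above Ache at 2.49 RPKM (1.14 to 3.02) with no overlap. No library lay near that Neurog2 median. The cultures numbered 1 had 0.896 to 2.65 RPKM of Neurog2, below Isl1 and Slc18a3, and those numbered 2 had 37.4 to 58.8 RPKM. In neuron footprints Ache again led with no overlap, at 26.1 RPKM (19.8 to 36.1).

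The human TDP-43 arms were compared pairwise within each cell type and library type, 12 comparisons in all. Mnx1, Lhx3, Chat and Slc5a7 had too few reads to be tested by edgeR in any of them. Isl2 was tested in 1 and Lhx4 in 2. No member was called in any comparison by edgeR or by DESeq2, and none of the 37 member tests had an unadjusted p below 0.05 in edgeR. These edgeR tests therefore say nothing about Mnx1, Lhx3, Chat and Slc5a7, and little about Isl2 and Lhx4. The background was nearly as empty, with no gene called in 9 comparisons and 1 gene in each of 3, or 0.00965, 0.0100 and 0.0115% of those tested. Isl1 in MN1 total mRNA averaged 34.7 ± 5.8 CPM with GFP, 35.2 ± 3.5 CPM with hTDP-43 and 29.0 ± 3.5 CPM with hTDP-43 A315T (SD, n = 2 each), and in MN1 footprints 46.6 ± 3.3, 36.6 ± 4.3 and 37.3 ± 5.8 CPM. Over the 9 comparisons in which it was tested its log2 fold change lay between -0.39 and 0.25.

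Slc18a3 had the smallest adjusted p of any member among the arms, 0.849 for hTDP-43 A315T against GFP in MN1 total mRNA (log2 0.57 ± 0.26 SE). In MN1 total mRNA it averaged 19.3 ± 5.6 CPM with GFP, 26.4 ± 0.6 CPM with hTDP-43 and 30.6 ± 1.9 CPM with hTDP-43 A315T (SD, n = 2 each). Both A315T cultures lay above both GFP cultures in total mRNA, but in footprints the arms averaged 21.7 ± 8.1, 20.2 ± 8.8 and 21.9 ± 1.1 CPM and overlapped. In neurons it averaged 2.28 ± 0.02 CPM in WT (n = 2), 0.693 ± 1.200 CPM with hTDP-43 and 3.17 ± 0.82 CPM with hTDP-43 A315T (SD, n = 3) in total mRNA.

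Ache in neuron total mRNA averaged 92.9 ± 20.7 CPM in WT (n = 2), 112.5 ± 27.0 CPM with hTDP-43 and 106.6 ± 20.3 CPM with hTDP-43 A315T (SD, n = 3), and its log2 fold change over 11 comparisons lay between -0.05 and 0.27. Neurog2 ranged from -0.87 to 0.48 over 8 comparisons, with the spread between the dates inside each MN1 arm. Leaving out a single MN1 footprint library moved the Neurog2 log2 difference between arms to values from -3.80 to 4.76 and let it pass in either direction, since the arms then differed in their dates. With the culture number as a replicate block 13 to 283 genes were called in the 6 MN1 comparisons and 0 to 35 in the 6 neuron comparisons, and still no member. With 2 or 3 cultures per arm the data leave room for changes that these tests could not detect, above all in the members with few reads.

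Other genes of the same pathways were read from lists set beside the members, where the median log2 difference over all genes tested was -0.09 and, as above, 38.4% of all genes were called higher and 42.6% lower. Of 13 motor neuron progenitor and specification genes, 6 were tested in total mRNA, 2 were higher in MN1 cells (Pax6 log2 1.19 and Onecut2 log2 0.75, named after their values were seen) and 4 lower: Stmn2 (log2 -8.12), Sox11 (log2 -6.89), Olig2 (log2 -6.04) and Neurod1 (log2 -4.85). The median of the 6 was log2 -5.45. Stmn2 and Sox11 are also broad neuronal genes and Olig2 is also glial. Of 20 motor column and motor pool genes, 7 of 14 tested were higher and 5 lower (median log2 1.51), shares near those of all genes. The largest were Tbx20 (log2 7.03), a factor of hindbrain motor neurons, Prph (log2 6.77), the intermediate filament peripherin, and Ret (log2 6.23), a neurotrophic factor receptor, all higher, and Pou3f1 (log2 -5.95), lower. Prph and Ret are also made by sympathetic neurons and neuroblastoma.

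A further list held LIM-homeodomain cofactors and other LIM factors, Lhx9 among the latter. A role of each listed gene with the LIM factors of the set was not tested. In this list 2 of 13 tested genes were higher in MN1 total mRNA (Lmo1 log2 2.02 and Stub1 log2 0.47, named after their values were seen). Of the others 9 were lower (median log2 of the tested -1.54), with Ldb2 (log2 -6.21), Lmo3 (log2 -6.17), Lhx9 (log2 -5.17) and Lmo4 (log2 -4.78) in front. The Lhx9 value rested on a single neuron library, WT culture 3, at 512.5 CPM, where the neuron median was 3.01 CPM and the MN1 median 1.00 CPM. Ldb1, a cofactor of the complex of Isl1 and Lhx3, had log2 -0.24 and did not pass in total mRNA, and it was called lower in footprints (log2 -0.99), a gene also named after its values were seen. Of 14 genes of choline supply and acetylcholine breakdown, 3 of 8 tested were higher in MN1 total mRNA, among them Prima1 (log2 3.02), which anchors acetylcholinesterase in the membrane, and 4 were lower (median log2 -0.37), among them Slc44a5 (log2 -4.09), Pcyt1b (log2 -3.14) and Chka (log2 -1.79).

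Of 23 acetylcholine receptor genes, 12 were tested in total mRNA and 9 were lower in MN1 cells (median log2 of the tested -1.82), with Tmem35a (log2 -10.56, a nicotinic receptor chaperone), Chrm1 (log2 -8.96), Chrna4 (log2 -8.53) and Chrm3 (log2 -8.25) lowest. The 3 that were higher were Chrna3 (log2 7.34), Chrnb4 (log2 5.43) and Chrna5 (log2 1.397), subunits of the ganglionic nicotinic receptor, named after their values were seen. Of 16 neuroblastoma and sympathoadrenal genes, 12 of 14 tested were higher in MN1 total mRNA (median log2 3.55), Isl1 among them, led by Gata2 (log2 12.75), Phox2a (log2 12.04) and Hand2 (log2 10.73). Their summed level was 2706 to 3305 CPM in MN1 total mRNA and 320.4 to 433.0 CPM in neurons. What part of the Isl1 and Slc18a3 signal belongs to either parent of the hybrid was not tested.

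Cortical cultures can also hold forebrain inhibitory and cholinergic cells. Of 14 markers of these, 11 were tested, 9 were lower in MN1 cells, with Gad1 (log2 -10.96), Slc32a1 (log2 -10.47), Gad2 (log2 -10.08) and Dlx5 (log2 -5.86) in front. Their summed level in neuron total mRNA was 807.7 to 1420 CPM, and their part in the low Isl1, Slc18a3 and Chat values of neurons was not tested. Of 10 genes common to all neurons, 10 were lower in MN1 total mRNA, led by Rbfox3 (log2 -9.07), Stmn2, Map2 (log2 -6.90) and Gap43 (log2 -4.18). Of 12 glial markers, 8 were tested and 8 were lower, with Olig1 (log2 -8.32), Aldh1l1 (log2 -8.23), Slc1a3 (log2 -7.20) and Aqp4 (log2 -6.05) in front. In footprints 4 of the 12 glial markers listed, not all of which had enough reads to be tested, and 9 of the 10 neuronal genes were lower. Of all 10698 genes tested there, 42.7% were called lower.

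**Figure D4:**
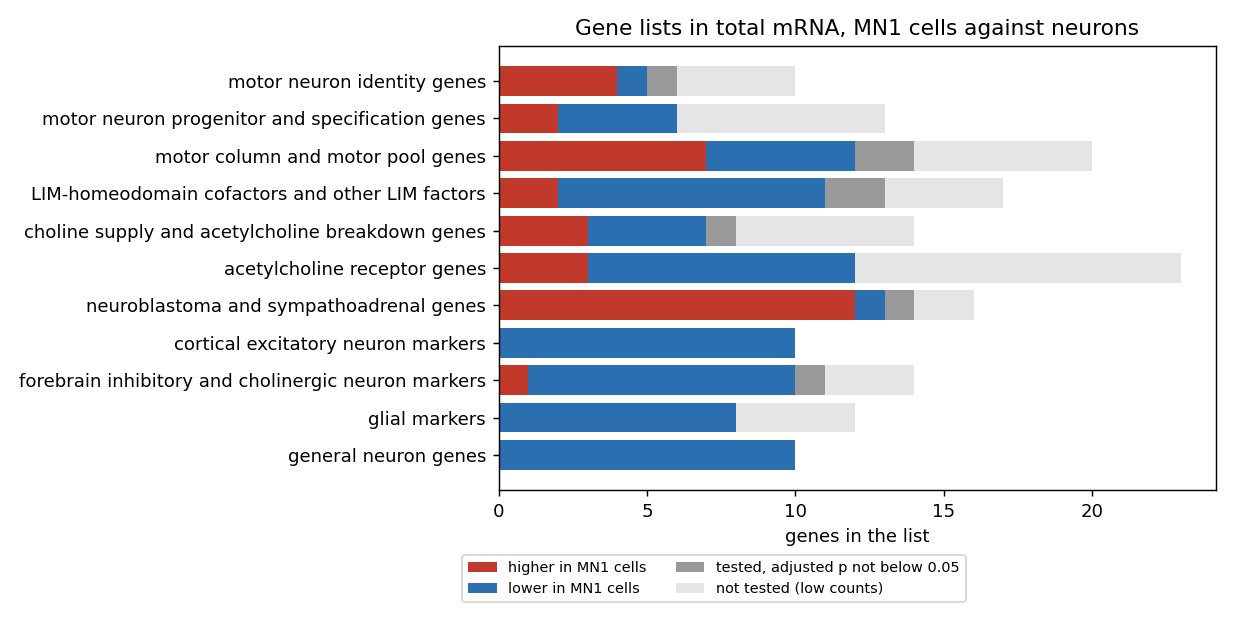
Number of genes in each list that were higher (red), lower (blue), tested without passing (dark grey) or not tested for low counts (light grey) in total mRNA of MN1 cells against neurons. The neuroblastoma and sympathoadrenal list is mostly higher (12 of 16), the cortical excitatory list is all lower (10 of 10), and the motor neuron lists hold both.

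The pattern of Isl1 over the 14 total mRNA libraries was most like those of Gm42860, Cd9 and Igf2bp3 (Pearson r of log2 CPM 0.99 for each). Within the 6 MN1 libraries alone these values were 0.11, 0.55 and -0.60, and within the 8 neuron libraries they were 0.89, 0.86 and 0.95. The 14 libraries share 2 cell types and unequal depths, which enter every such value. Slc18a3 was nearest to Fstl3 (r = 0.99), Cnn2 (0.98) and Nup54 (0.98), Ache to Cpt1c, Jph3 and March4 (0.99 for each), Lhx4 to Shisa3 (0.98), Wnk1 (0.98) and Kif24 (0.97), and Isl2 to Irak4, Mief1 (0.96 for each) and Mcam (0.95). Neurog2 had weaker neighbours, Ppp1r3f and Frat1 (0.85 for each) and Armh4 (0.84), with 0.93, 0.89 and 0.94 within the MN1 libraries.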

How the data were processed

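Total mRNA and ribosome footprints of MN1 cells and cortical neurons were analysed from 28 tables of raw counts per gene, as deposited by the authors. Per the file headers and the study's methods, the authors trimmed reads with cutadapt 1.8.1, removed non-coding RNA with Bowtie2, aligned to GRCm38 with TopHat2 and counted reads over Ensembl exons, without regard to strand, with featureCounts 1.4.4. Total mRNA was poly(A)-selected and footprints were not. Groups were taken from the sample labels. Counts were fitted with edgeR 4.0.16 (quasi-likelihood F test, TMM scaling, filterByExpr with a minimum count of 10 and a minimum total of 15, Benjamini-Hochberg adjustment over all genes, calls at an adjusted p below 0.05) in R 4.3.3. The MN1 against neurons fits gave each arm its own mean and compared the average of the 3 arm means of each cell type on the log scale, so an arm left with few or no reads weighs as much as the others. The fits of footprints against total mRNA were run per cell type and then jointly, and the arms were compared in pairs. The main fits of footprints against total mRNA left out the pairing of the 2 libraries of a culture, which entered only as the replicate block. The scripts were tested on simulated data.

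Alternatives were DESeq2 1.42.0, its size factors in edgeR, no low-count filter, a replicate block, control groups only and leaving out each culture. Fits by MN1 culture number, fits without Lars2-rich or shallow neuron libraries and the comparison of culture numbers were added after seeing the data. Culture numbers were paired within a cell type because the sample titles give same-numbered libraries a shared date, except that the title of the GFP culture 1 footprints has the day and month of its partners with another year. Deviations of same-numbered libraries from their group means correlated at 0.399 to 0.592 in MN1 cells and at -0.353 to 0.713 in neurons, where the pairing rests on the titles alone. No paired analysis was possible between MN1 cells and neurons, whose numbers mark unrelated dates, and there the block was the number within a cell type.

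The 10 genes and all lists were chosen with earlier results of these data known. Named genes were all 10 members, up to 4 called genes of each list with the largest log2 difference between MN1 cells and neurons in total mRNA, and the 3 genes most correlated with each tested member. In the arm comparisons the rule named any called gene of the lists. Some list genes that the rule would name are not reported here. Promoter windows came from RefSeq (GRCm38.p6), which listed all 10 genes. Intervals on read sums are exact Poisson intervals at 95% and cover counting error only.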

Additional observations from a re-analysis of the deposited data

Results flagged for a closer look

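The highest or lowest library was compared with the others for each gene over all arms of a cell type and library type, in 30 sets of 6 or 8 libraries, by Dixon's gap over range. In 3 sets a library stood apart. The cut-off is set for about 1 in 20 with normal values from a single group. These sets pool arms, unequal depths and few reads, so the number that chance would give is not known. Isl2 in MN1 footprints was at 8.44 CPM in GFP culture 2 (8 reads), with a gap of 0.702 of the range. Lhx3 in neuron footprints was at 12.3 CPM in hTDP-43 A315T culture 1 (29 reads), with a gap of 0.544. Neurog2 in neuron footprints was at 21.5 CPM in hTDP-43 culture 2, a library in which this is 4 reads, with a gap of 0.533. The causes were not tested.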

How the results depend on the processing

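Of 744 member values under an alternative, 718 kept their side of the threshold, 10 lost a call, 11 gained one and 5 reversed. Among the 718 were 53 values not called in either fit whose sign differed. Calls of Isl1, Slc18a3 and Ache between MN1 cells and neurons held under all alternatives. The number of members called between MN1 cells and neurons in total mRNA was 5, where 81.0% of all genes tested were called. It was 8 with no low-count filter, where 40.8% of all genes tested were called, and 3 in the control groups alone, where fewer libraries entered. For footprints against total mRNA it was 2 in MN1 cells, 1 with the cultures numbered 2 alone and 1 to 3 when leaving out each culture. In neurons it was 1, against 2 with no filter, 2 with the replicate block and 0 to 3 when leaving out each culture. For the difference between cell types it was 0, against 1 with no filter, with the replicate block and with the cultures numbered 2 alone. Between MN1 culture numbers in total mRNA it was 1, against 0 by DESeq2 and 2 with no filter. In each of the MN1 footprint comparisons of arms it was 0, and 0 to 1 when leaving out each culture.

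Neurog2 in footprints of MN1 cells against neurons reversed to log2 -1.47 with the cultures numbered 1 alone. When leaving out each culture its log2 difference ran from -2.87 to 4.76 for hTDP-43 A315T against GFP, from -3.29 to 4.24 for hTDP-43 A315T against hTDP-43 and from -3.80 to 4.73 for hTDP-43 against GFP. The replicate block changed the calls of Neurog2 in total mRNA between cell types (log2 -2.15), Neurog2 in the joint fit (log2 3.43) and Ache in neurons (log2 0.35), and no other member call.

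Over all genes, 10369 calls between cell types in total mRNA fell to 6471 in the control groups alone. The joint fit called 997 genes, 26.4% of them higher, against 671 (66.8% higher) by DESeq2, 604 (69.0%) with its size factors, 754 (36.6%) with no filter, 156 and 121 with the cultures numbered 2 and 1 alone (51.2% for the latter) and 224 to 1592 when leaving out each culture. Between culture numbers edgeR called 1524 genes in total mRNA and 382 in footprints, and DESeq2 called 238 and 63. The arm comparisons called 0 to 1 genes, 0 to 11 by DESeq2, 6 to 209 with no filter, 0 to 283 with the block and 0 to 1573 when leaving out each culture. Depth limits Mnx1, Chat, Slc5a7, Lhx3 and, in footprints, Isl2 and Lhx4, which a few reads per library decide.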
